A study of Canis lupus familiaris with 9 samples.

Results

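The genes described here are those of the autophagy machinery and its cargo receptors, from the kinase complex that starts an autophagosome to the proteins that fuse it with a lysosome. A list of 44 gene symbols was matched to the gene symbols of the deposited table, and 41 of them have a row among its 12696 protein coding genes. The other 3, MAP1LC3A, MAP1LC3B and BNIP3L, have no row under these symbols and were not analysed here, so 2 of the 5 listed members of the ATG8 family carry no value. The cells were macrophages grown from blood monocytes of spayed female beagles, differentiated for 7 days with recombinant human M-CSF at 10 ng/mL. M1 macrophages then received canine IFN-γ at 20 ng/mL, M2 macrophages received canine IL-4 together with canine IL-13 (20 ng/mL of either), and M0 macrophages received no polarizing cytokine, and RNA was taken after 24 h. The 9 samples form 3 groups of 3. The labels repeat the same 3 sample descriptions in each group, taken here to stand for 3 dogs that each gave an M1, an M2 and an M0 culture.

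The values are the authors' mean normalized counts of each group, with no value for any sample. No error can be given for a mean, and no difference below was tested against the spread between dogs. A ratio is that of the means of the groups named, on the log2 scale. A gene is described as past 1.5-fold when its means differed by that much or more and the higher mean was at least 50 normalized counts, and the share of all genes that did the same is given as the background. Normalized counts are not divided by gene length, so levels are compared between groups for a gene and not between genes. Fewer cells of a type and less RNA per cell cannot be told apart in these bulk samples.

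Autophagy encloses portions of cytoplasm in a double membrane, the autophagosome, which is delivered to lysosomes for degradation. In outline, the ULK kinase complex responds to nutrient and energy signals, a lipid kinase complex marks the forming membrane with the phosphoinositide PI3P, lipid transfer proteins enlarge it, and a ubiquitin-like conjugation system attaches ATG8 proteins (the LC3 and GABARAP proteins) to it. Receptors such as SQSTM1 bind ATG8 proteins and cargo together, including ubiquitin-tagged bacteria and damaged mitochondria. In macrophages the pathway and parts of its machinery serve the removal of intracellular microbes, the maturation of phagosomes and the restraint of inflammatory signals.

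The macrophage label was checked against 14 markers of monocytes and macrophages, of which 11 have a row, each with a mean of at least 1355 normalized counts in every group. Their means summed to 141791 in M1, 247292 in M2 and 283423 in M0 macrophages. Of the 11 markers, 6 were past 1.5-fold lower in M1 than in M0 macrophages, 54.5% beside 16.6% of all genes, and none was higher, beside 13.5%. The 6 were CSF1R, CD163, MRC1, ADGRE1, MSR1 and LYZ. The ratio lay below 0 for 8 of the 11 and above 0 for 3, which were AIF1, SPI1 and FCER1G. In M2 against M0 macrophages 1 (MRC1) was past 1.5-fold higher and 3 lower, 9.09% and 27.3% beside 6.22% and 8.73%. MRC1, the gene of CD206, had means of 1355 in M1, 33893 in M2 and 7046 in M0. In M2 against M1 macrophages 4 were higher and none lower, 36.4% and 0% beside 13.4% and 11.5%. The 3 mast cell and basophil markers with a row (of 6 listed) summed to 100.2 normalized counts in M1, 4180 in M2 and 564 in M0 macrophages. Natural killer cell markers, 4 of 5 with a row, summed to 62.7 in M1, 59.8 in M2 and 57.1 in M0 macrophages. T cell markers, 7 of 8 with a row, summed to 1194 in M1, 5998 in M2 and 4683 in M0 macrophages, of which CD4, also a macrophage gene, gave 918, 5565 and 4325. Of the 3 T cell markers that reached the minimum mean in M1 or M0 macrophages, CD4 and CD5 were past 1.5-fold lower in M1. That was 66.7% beside 16.6% of all genes, and 0% were higher, beside 13.5%. CD3E had means of 88.8 in M1, 162 in M2 and 92.8 in M0. It was the 1 of 4 T cell markers past 1.5-fold higher in M2 than in M0, 25% beside 6.22%. B cell markers, 5 of 6 with a row, summed to 9991 in M1, 12242 in M2 and 10682 in M0, nearly all of it from CD79A. CD79B was the 1 of 3 B cell markers past 1.5-fold higher in M2 than in M0, 33.3% beside 6.22%. Neutrophil markers, 2 of 6 with a row, summed to 534 in M1, 161 in M2 and 739 in M0. The 2 went opposite ways in M1 against M0. CSF3R was past 1.5-fold lower, with means of 376 in M1, 92.9 in M2 and 664 in M0. LTF was past it higher, with 159 in M1, 68.5 in M2 and 74.7 in M0. Each is 50% of the 2, beside 16.6% of all genes lower and 13.5% higher. Fibroblast and endothelium markers, 2 of 7 with a row, summed to 49.0 in M1, 135 in M2 and 182 in M0. The 1 platelet marker with a row, of 5 listed, had means of 42.8 in M1, 35.2 in M2 and 40.2 in M0. The part of these differences in the results on autophagy genes was not tested.

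IFN-γ treated macrophages had lower means of 9 of the 41 autophagy genes by 1.5-fold or more, and of none of them a mean that was higher by as much. The 9 genes were ULK2, WIPI1, CALCOCO1, ULK1, ATG2A, AMBRA1, NBR1, ATG10 and ATG7. Among all 10790 genes that reached the minimum mean in M1 or M0 macrophages, 16.6% were past 1.5-fold lower in M1 and 13.5% higher. The share of autophagy genes past it was 22.0% lower and 0% higher. The median log2 ratio of the 41 genes was -0.10, beside 0.01 over all these genes. The ratio lay above 0 for 16 of the 41 and below 0 for 25. Of all these genes, 48.5% had a ratio of -0.004 or lower.

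In IL-4 and IL-13 treated macrophages 3 of the 41 genes were past 1.5-fold. WIPI1 was past 1.5-fold higher in M2 than in M0 macrophages, and ULK2 and ATG16L2 were past it lower. The background over 10787 genes was 6.22% higher and 8.73% lower, against 2.44% and 4.88% of the autophagy genes. Their median log2 ratio was -0.03, beside 0.02 over all these genes. On the log2 scale the M2 mean lay nearer to the M0 mean than the M1 mean did for 31 of the 41 genes, or 75.6%, beside 69.9% of the 10902 genes that reached the minimum mean in at least 1 group. M1 and M2 macrophages were set against the same M0 samples, so these ratios share their denominator.

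**Figure D1:**
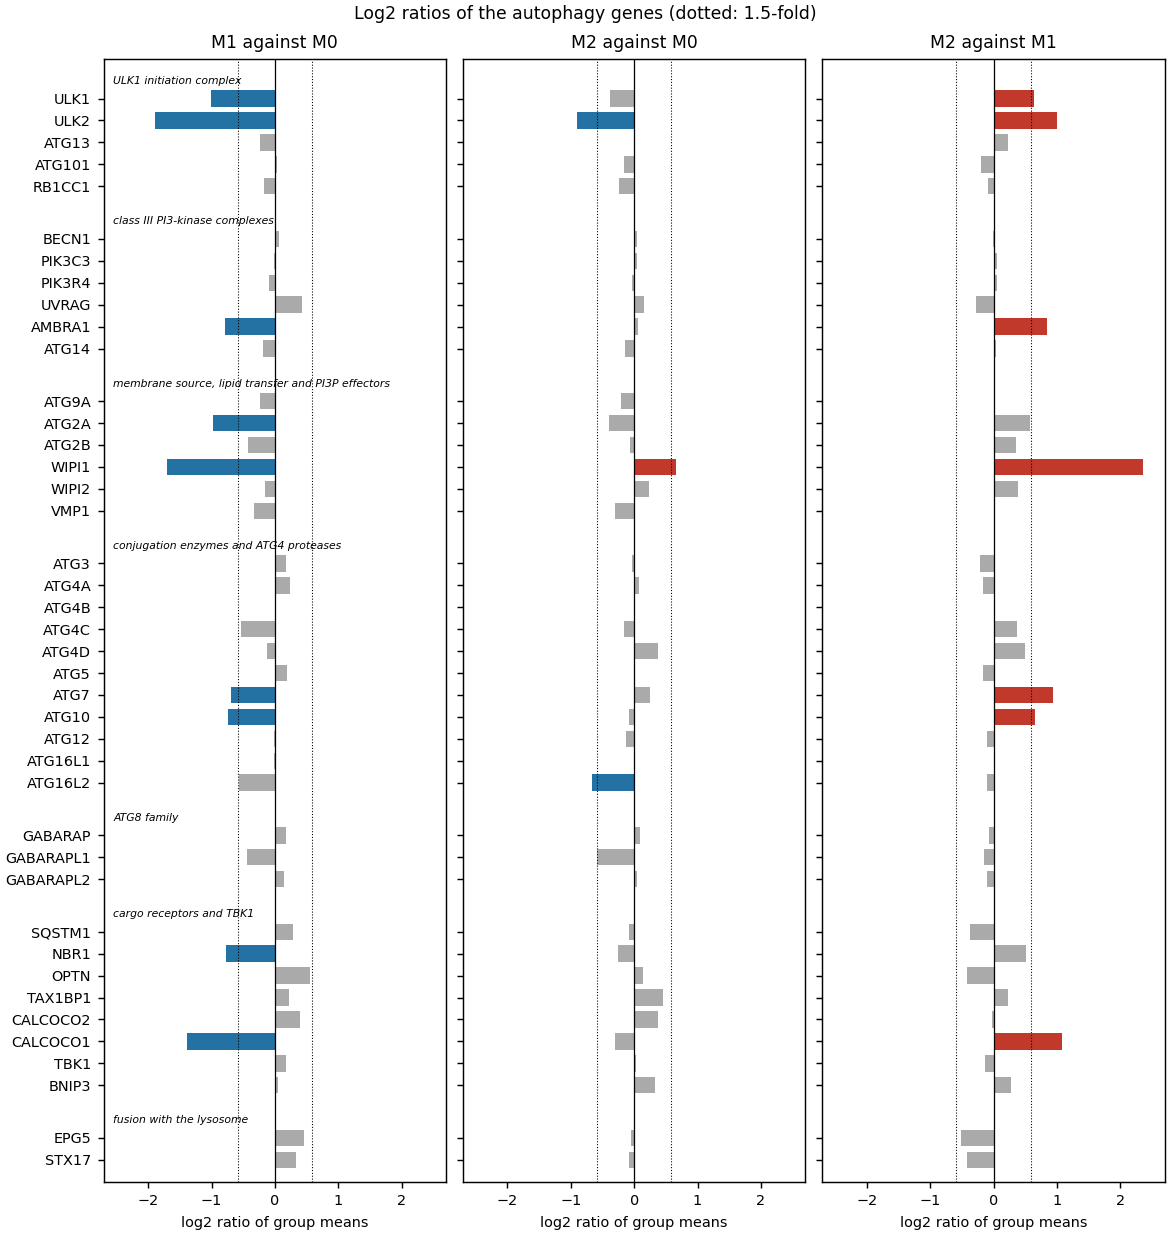
Log2 ratios of the authors' group means for the 41 autophagy genes, in rows by role, for M1 against M0, M2 against M0 and M2 against M1 macrophages. Blue bars are past 1.5-fold lower, red bars past 1.5-fold higher and grey bars not past it. Blue bars number 9 in the panel of M1 against M0, which has no red bar, and 2 in the panel of M2 against M0.

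Initiation came first in the pathway and held the gene with the lowest ratio. ULK1 and ULK2 are the kinases of the initiation complex. ULK2 had a mean of 1755 normalized counts in M1 and 3512 in M2 macrophages, against 6549 in M0 macrophages. Its mean was 3.73-fold lower in M1 than in M0 (log2 ratio -1.90) and 1.86-fold lower in M2 than in M0 (log2 ratio -0.90). Of all genes compared, 2.72% had a ratio as low in M1 and 4.38% in M2. ULK1 had means of 1448 in M1, 2245 in M2 and 2925 in M0 macrophages, which was 2.02-fold lower in M1 than in M0 and 1.30-fold lower in M2 than in M0. Both kinases thus had the same order of groups, with M1 lowest and M0 highest.

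The other subunits of that complex differed less. ATG13, the adaptor that carries the signal from MTORC1 and AMPK, had means of 705 in M1, 823 in M2 and 827 in M0 macrophages. RB1CC1, the large scaffold also called FIP200, had 2370 in M1, 2243 in M2 and 2657 in M0. ATG101, which stabilizes ATG13, had 1300 in M1, 1139 in M2 and 1268 in M0. None of these 3 was past 1.5-fold in any comparison, and their log2 ratios of M1 against M0 were -0.23, -0.16 and 0.04 in the order named.

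The class III PI3-kinase complexes make PI3P on the forming membrane. Their catalytic subunit PIK3C3 had nearly level means, 1019 in M1, 1055 in M2 and 1026 in M0 macrophages. The regulatory subunit PIK3R4 had 1061 in M1, 1106 in M2 and 1134 in M0, and BECN1, the scaffold, had 2033, 2012 and 1945 in the same order of groups. The subunits that assign the complex to its site were also within 1.5-fold. ATG14, which directs it to autophagosome formation, had means of 211 in M1, 216 in M2 and 240 in M0, and UVRAG, which directs it to endosomes, had 1233 in M1, 1021 in M2 and 914 in M0. UVRAG was 1.35-fold higher in M1 than in M0.

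AMBRA1 was the exception among these genes. It binds BECN1 and also serves as a substrate receptor of a cullin ubiquitin ligase. Its mean was 1186 in M1 and 2137 in M2 macrophages, against 2053 in M0 macrophages. That was 1.73-fold lower in M1 than in M0 (log2 ratio -0.79), while M2 and M0 differed by 1.04-fold. In M2 macrophages its mean was 1.80-fold higher than in M1.

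Among the proteins that enlarge the membrane, WIPI1 was past 1.5-fold in every comparison. WIPI1 and WIPI2 bind PI3P, and WIPI2 recruits ATG16L1 to the membrane. WIPI1 had a mean of 507 normalized counts in M1 and 2599 in M2 macrophages, against 1650 in M0 macrophages. It was 3.25-fold lower in M1 than in M0 (log2 ratio -1.70) and 1.58-fold higher in M2 than in M0 (log2 ratio 0.66). The M2 mean was 5.12-fold the M1 mean (log2 ratio 2.36), and 1.80% of the 10737 genes compared between M2 and M1 had a ratio as high. WIPI2 had means of 1815 in M1, 2379 in M2 and 2013 in M0, within 1.5-fold in each comparison.

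ATG2A and ATG2B form bridges through which lipids flow into the membrane. ATG2A had a mean of 1599 in M1 and 2388 in M2 macrophages, against 3154 in M0, so it was 1.97-fold lower in M1 and 1.32-fold lower in M2. ATG2B had 901 in M1, 1148 in M2 and 1206 in M0, a log2 ratio of -0.42 in M1 against M0 and -0.07 in M2 against M0. ATG9A, the scramblase of the vesicles that seed the membrane, had 981 in M1, 999 in M2 and 1160 in M0. VMP1, a membrane protein of the endoplasmic reticulum, had 2963 in M1, 2995 in M2 and 3710 in M0. All 6 genes of this role had an M1 mean below the M0 mean, and 2 of them were past 1.5-fold. Those 2 are 33.3%, beside 16.6% of all genes past it lower in M1. The median log2 ratio of the 6 in M1 against M0 was -0.37, beside 0.01 over all genes.

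**Figure D2:**
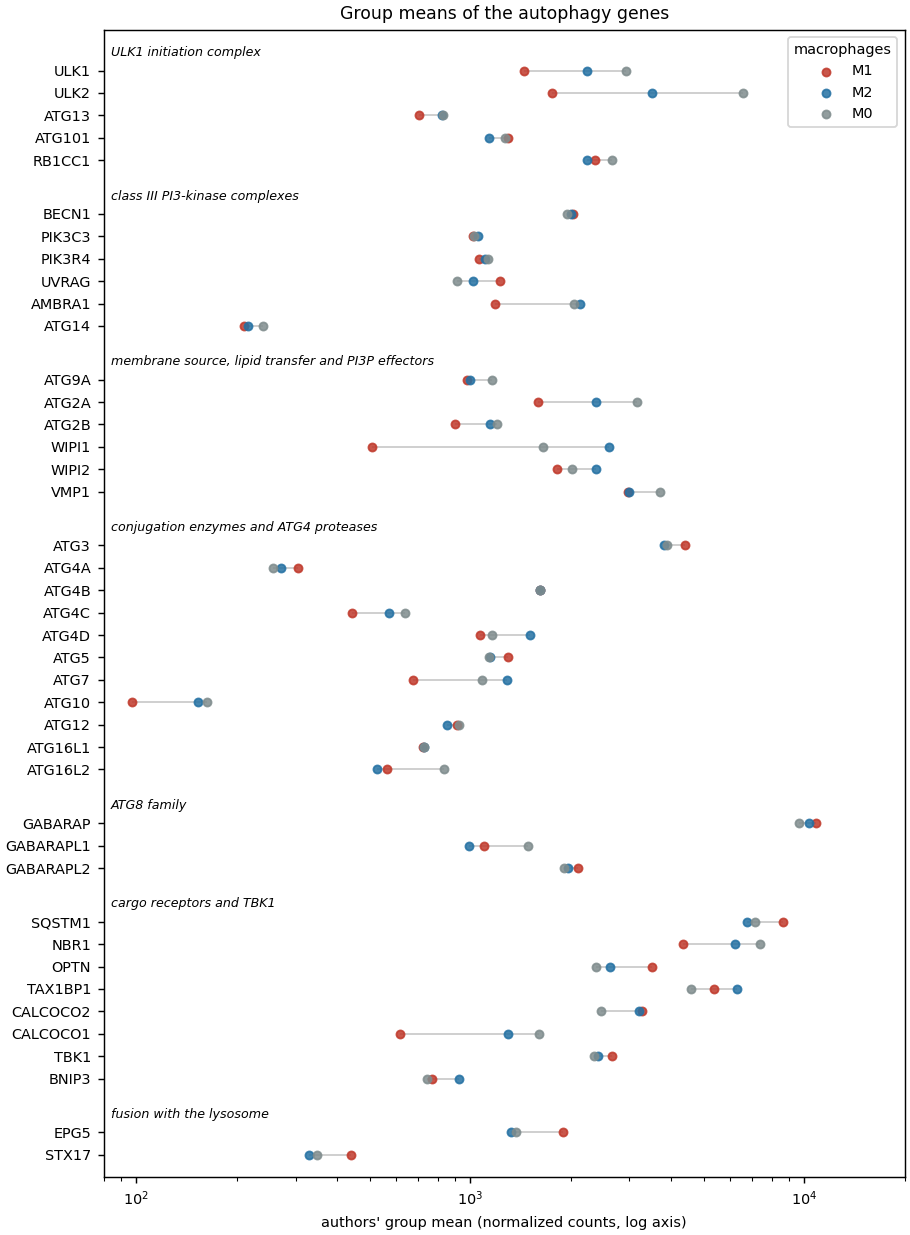
The authors' mean normalized counts, on a log axis, of the 41 autophagy genes by role, in M1 (red), M2 (blue) and M0 (grey) macrophages; a line joins the lowest and the highest mean of a gene. ULK2, WIPI1 and CALCOCO1 have the longest lines and ATG4B and ATG16L1 the shortest.

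In M1 against M0 macrophages 2 of the 11 genes of the conjugation system were past 1.5-fold, both lower. That was 18.2%, beside 16.6% of all genes, and 0% were higher, beside 13.5%. ATG7, the E1-like enzyme that activates both ATG12 and the ATG8 proteins, had a mean of 676 in M1 and 1294 in M2 macrophages, against 1089 in M0 macrophages. It was 1.61-fold lower in M1 than in M0, and the M2 mean was 1.91-fold the M1 mean. ATG10, the E2-like enzyme for ATG12, had means of 97.3 in M1, 153 in M2 and 162 in M0. It was 1.67-fold lower in M1 than in M0. ATG3, the E2-like enzyme for ATG8 proteins, had 4404 in M1, 3802 in M2 and 3891 in M0, a log2 ratio of 0.18 in M1 against M0.

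ATG12, ATG5 and ATG16L1 make up the complex that attaches ATG8 proteins to lipid. ATG12 had means of 914 in M1, 853 in M2 and 928 in M0 macrophages, and ATG5 had 1296 in M1, 1151 in M2 and 1136 in M0. ATG16L1 was among the most level of the 41 genes, with 722 in M1, 730 in M2 and 729 in M0. ATG16L2, its relative, differed from it, with 566 in M1 and 527 in M2, against 835 in M0. ATG16L2 was 1.59-fold lower in M2 than in M0, and its 1.48-fold lower mean in M1 was just short of the 1.5-fold line.

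The ATG4 proteases trim ATG8 proteins before they are attached and release them from membranes afterwards. ATG4B had means of 1615 in M1, 1622 in M2 and 1620 in M0 macrophages, a span of 1.00-fold. ATG4A had 305 in M1, 271 in M2 and 257 in M0, and ATG4C had 443 in M1, 573 in M2 and 640 in M0. ATG4D had 1070 in M1, 1511 in M2 and 1163 in M0, so its highest mean was that of M2 macrophages. The largest fold among the 4 proteases against M0 was that of ATG4C, 1.44-fold lower in M1.

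Of the ATG8 family, only the 3 GABARAP genes have a row. GABARAP had means of 10882 in M1, 10327 in M2 and 9644 in M0 macrophages. GABARAPL2 had 2111 in M1, 1968 in M2 and 1909 in M0. GABARAPL1 went the other way, with 1098 in M1 and 993 in M2, against 1488 in M0. Its mean was 1.35-fold lower in M1 and 1.498-fold lower in M2 than in M0 macrophages, the nearest of all 41 genes to the 1.5-fold line without reaching it. Of the genes compared, 8.83% had a ratio as low in M2 against M0.

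In M1 against M0 macrophages 2 of the 8 genes of the receptor list with a row were past 1.5-fold lower and none higher. Those shares were 25% and 0%, beside 16.6% and 13.5% of all genes. The ratio lay below 0 for these 2 and above 0 for the other 6. CALCOCO1, a receptor for the endoplasmic reticulum and the Golgi, had a mean of 616 in M1 and 1302 in M2, against 1604 in M0. It was 2.60-fold lower in M1 than in M0 (log2 ratio -1.38), 1.23-fold lower in M2 than in M0, and 2.11-fold higher in M2 than in M1. NBR1, a receptor for ubiquitin-tagged aggregates and peroxisomes, had 4348 in M1, 6210 in M2 and 7396 in M0 macrophages, 1.70-fold lower in M1 than in M0.

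The other 6 genes of the receptor list were not past 1.5-fold in any comparison. Those known to recognize ubiquitin-coated bacteria were OPTN, CALCOCO2, TAX1BP1 and SQSTM1. OPTN had a mean of 3516 in M1 and 2628 in M2, against 2382 in M0, and its 1.48-fold difference between M1 and M0 was the largest upward difference of the 41 genes in that comparison. CALCOCO2, also called NDP52, had 3271 in M1, 3214 in M2 and 2472 in M0. TAX1BP1 had 5364 in M1, 6309 in M2 and 4582 in M0. SQSTM1, also called p62, had 8654 in M1 and 6724 in M2, against 7126 in M0, so its M2 mean was the lowest of the 3. TBK1, the kinase that phosphorylates several of these receptors, had 2654 in M1, 2409 in M2 and 2351 in M0. BNIP3, a receptor on mitochondria that hypoxia induces in other systems, had 768 in M1, 928 in M2 and 742 in M0.

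The 2 genes of fusion with the lysosome both had their highest mean in M1 macrophages, as did 41.1% of the 10902 genes. Neither was past 1.5-fold in any comparison. EPG5, a tether of autophagosomes to lysosomes, had 1892 in M1 and 1322 in M2, against 1376 in M0, 1.38-fold higher in M1 than in M0. STX17, the SNARE protein of completed autophagosomes, had 441 in M1 and 329 in M2, against 349 in M0, 1.27-fold higher in M1.

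**Figure D3:**
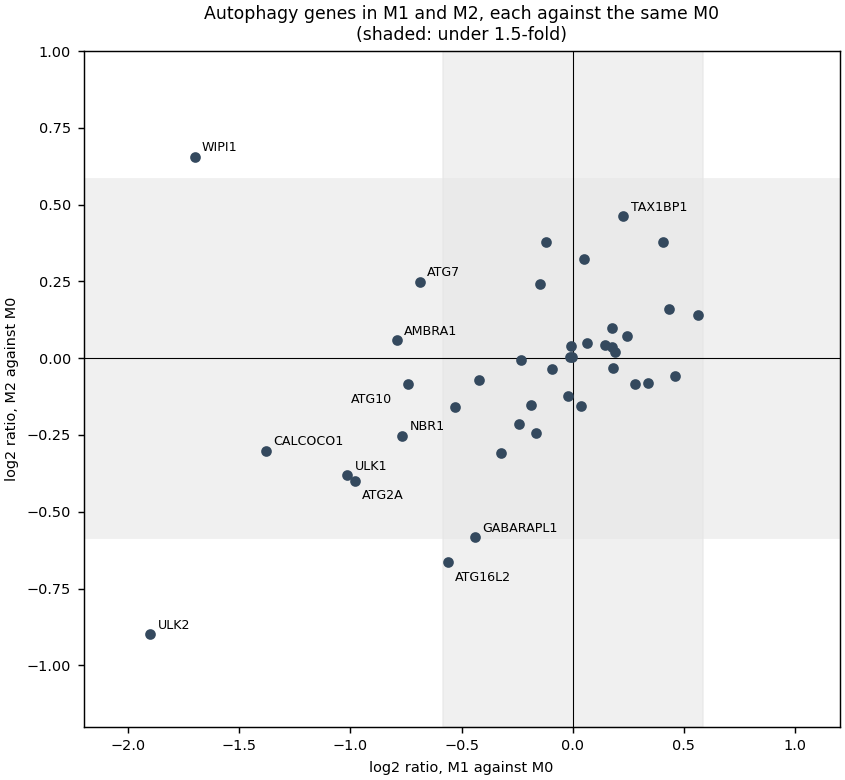
Log2 ratio of the authors' means in M2 against M0 macrophages (vertical axis) plotted against that in M1 against M0 (horizontal axis) for the 41 autophagy genes; the shaded bands hold ratios under 1.5-fold. Both axes use the same M0 mean. WIPI1 lies past 1.5-fold in both directions, lower in M1 and higher in M2, and ULK2 lies past it on the lower side of both axes.

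M2 and M1 macrophages were also set against each other. Here 7 of the 41 genes were past 1.5-fold higher in M2, and for none was the M2 mean lower by as much. They were WIPI1, CALCOCO1, ULK2, ATG7, AMBRA1, ATG10 and ULK1, each of which was also lower in M1 than in M0 macrophages. Both comparisons use the same M1 means, so a low M1 mean enters both. The background over 10737 genes was 13.4% higher and 11.5% lower in M2, against 17.1% and 0% of the autophagy genes. ATG2A and NBR1, the other two of the 9, were 1.49-fold and 1.43-fold higher in M2 than in M1. The lowest ratio in this comparison was that of EPG5, at -0.52 on the log2 scale. Over the 41 genes the median was 0.02, beside -0.003 over all genes compared.

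Across the 3 groups, 21 of the 41 genes had their lowest mean in M1, 9 in M2 and 11 in M0 macrophages. Those shares were 51.2%, 22.0% and 26.8%, beside 40.2%, 23.4% and 36.4% of the 10902 genes. The highest mean was that of M1 for 14 genes, of M2 for 10 and of M0 for 17, shares of 34.1%, 24.4% and 41.5% beside 41.1%, 26.6% and 32.2%. For 10 genes, or 24.4%, the highest of the 3 means was at least 1.5-fold the lowest, beside 38.2% of the 10902, and for 6, or 14.6%, it was under 1.1-fold, beside 9.65%. These shares were not tested.

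Several differences lay between close relatives, so they were read as pairs. The pairs and the order within each were set after the values had been seen. ATG4B and ATG4D were not paired. CALCOCO1 and CALCOCO2 stood furthest apart in M1 against M0 macrophages, with log2 ratios of -1.38 and 0.40, a gap of 3.45-fold. For WIPI1 and WIPI2 the gap was 2.93-fold in M1 against M0. In M2 against M0 the gap of the WIPI pair was 1.33-fold and had the opposite sign, since WIPI1 had the higher ratio there. ULK2 lay below ULK1 by 1.85-fold in M1 and 1.43-fold in M2. ATG16L2 lay below ATG16L1 by 1.46-fold in M1 and 1.59-fold in M2, and GABARAPL1 lay below GABARAP by 1.53-fold in M1 and 1.60-fold in M2. ATG2A lay below ATG2B by 1.47-fold in M1 and 1.26-fold in M2, and ATG4C below ATG4A by 1.71-fold and 1.17-fold. Each gap compares a pair of genes within the same group means, so a scaling of a whole group leaves it as it is.

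**Figure D4:**
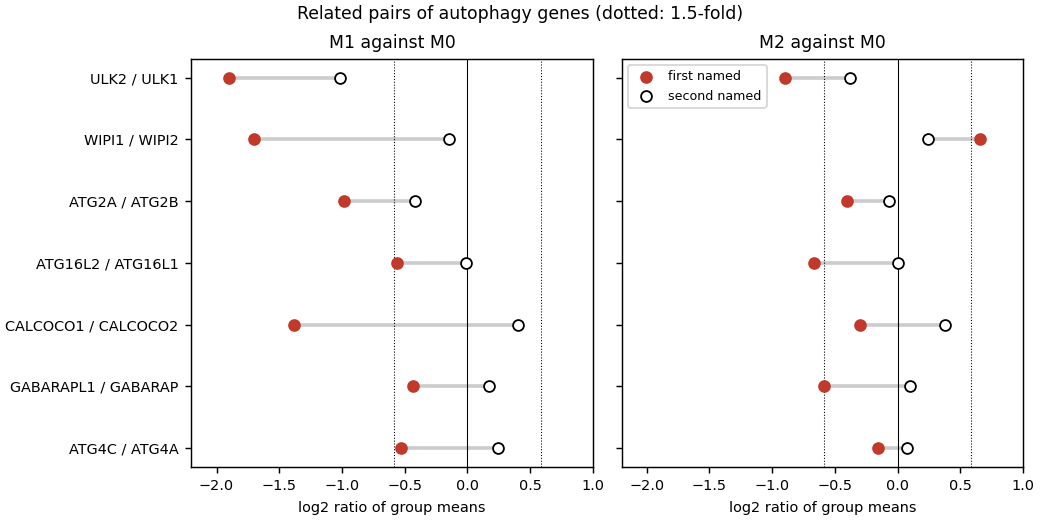
Log2 ratios of the authors' means for 7 related pairs of autophagy genes, in M1 against M0 (left) and M2 against M0 macrophages (right); filled points are the gene named first, open points the gene named second. The filled point lies left of the open point in each pair except the WIPI pair of M2 against M0. The order within each pair was set after the values had been seen, so this pattern is not a result.

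The other lists of the pathway, 6 in number, held 96 genes, of which 83 have a row. Of these, 81 reached the minimum mean in M1 or M0 macrophages, and 11 were past 1.5-fold higher in M1 and 11 lower, 13.6% each, beside the background of 13.5% and 16.6%. After rescaling to equal sums of the means these counts became 6 higher and 14 lower, 7.41% and 17.3% beside 11.3% and 18.6% of all genes. LAMTOR3, FNIP2, KEAP1, PHB2 and VPS18 were then no longer past 1.5-fold higher, and SESN2, SESN3 and FOXO1 were past it lower. In M2 against M0 macrophages 80 reached the minimum mean, and 1 was past 1.5-fold higher, beside a background of 6.22%, and 6 were lower, 7.5% beside 8.73%. In M2 against M1 macrophages 10 of 81 were past it higher and 7 lower, 12.3% and 8.64% beside 13.4% and 11.5%. Genes named from these lists are those past 2-fold in a comparison, and any others were picked after their values had been seen.

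MTORC1 restrains the ULK kinases when nutrients are plentiful, and 25 of the 28 listed genes of MTORC1 and its inputs reached the minimum mean. In M1 against M0 macrophages 4 were past 1.5-fold higher and 3 lower, 16% and 12% beside 13.5% and 16.6% of all genes. DDIT4, a stress-induced inhibitor of MTORC1, had a mean of 584 in M1 and 1061 in M2, against 2560 in M0, 4.38-fold lower in M1 and 2.41-fold lower in M2. SESN1, a sestrin that passes on leucine shortage, had 129 in M1 and 251 in M2, against 383 in M0. TBC1D7, a subunit of the TSC complex, had 523 in M1, 1228 in M2 and 1173 in M0, so only its M1 mean stood apart. RRAGD, a Rag GTPase that holds MTORC1 at the lysosome, had 2201 in M1 and 978 in M2, against 1064 in M0, 2.07-fold higher in M1. The other genes past 1.5-fold higher in M1 were RRAGC, LAMTOR3 and FNIP2. In M2 against M0 macrophages 1 of the 25 was past 1.5-fold higher (SESN2) and 2 lower (DDIT4 and SESN1). Those shares were 4% and 8%, beside 6.22% and 8.73% of all genes. SESN2 had a mean of 3289 in M2, 1323 in M1 and 1941 in M0 macrophages. In M2 against M1 macrophages 5 were past 1.5-fold higher and 2 lower, 20% and 8% beside 13.4% and 11.5%. MTOR had nearly level means of 3798 in M1, 3844 in M2 and 3623 in M0.

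AMPK opposes MTORC1 when energy is short. Of 6 listed genes with a row, PRKAB2 was past 1.5-fold higher in M1 (1845 in M1, 1317 in M2 and 1048 in M0) and PRKAG2 lower (1250 in M1, 1827 in M2 and 2194 in M0). Each is 16.7% of the 6, beside 13.5% of all genes higher and 16.6% lower in M1 than in M0. PRKAA1, a catalytic subunit, had 912 in M1, 975 in M2 and 991 in M0.

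Of 8 transcription factors that act on autophagy genes in other systems, 1 was past 1.5-fold in M1 and none in M2 against M0 macrophages. In M1 that was 12.5% lower and 0% higher, beside 16.6% and 13.5% of all genes. In M2 against M0 the background was 8.73% lower and 6.22% higher. In M2 against M1 macrophages 2 were past 1.5-fold higher (FOXO4 and FOXO1) and 1 lower (MITF), 25% and 12.5% beside 13.4% and 11.5%. FOXO4 had a mean of 644 in M1 and 1682 in M2, against 1577 in M0, 2.45-fold lower in M1. TFEB, which binds promoters of lysosomal and autophagy genes, had 2823 in M1 and 1895 in M2, against 2503 in M0, and its relative MITF had 4400 in M1 and 2659 in M2, against 3938 in M0. MITF was 1.65-fold lower in M2 than in M1.

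Of 14 other core genes that reached the minimum mean in M1 or M0 macrophages, 2 were past 1.5-fold higher in M1 and 3 lower. Those shares were 14.3% and 21.4%, beside 13.5% and 16.6% of all genes. RUBCNL, which promotes autophagosome maturation, had the largest upward difference of these lists in M1 against M0, with means of 143 in M1 and 7.88 in M2, against 20.2 in M0, 7.09-fold higher in M1. Its means in M2 and M0 lie under the minimum of 50. TP53INP1, a stress-induced protein that binds ATG8 proteins, had 15.9 in M1 and 92.3 in M2, against 187 in M0, 11.7-fold lower in M1 and 2.03-fold lower in M2. RUBCN, an inhibitor of the class III PI3-kinase, was 1.67-fold lower in M1, with 510 in M1, 814 in M2 and 853 in M0. NRBF2, a subunit of that kinase complex, was 1.53-fold lower in M1, and KEAP1, a ubiquitin ligase adaptor that SQSTM1 binds, was 1.57-fold higher.

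Other selective receptors had 1 of 15 genes past 1.5-fold higher in M1 than in M0 macrophages (PHB2) and 3 lower (ATL3, CCPG1 and FUNDC1). Those shares were 6.67% and 20%, beside 13.5% and 16.6% of all genes. CCPG1, a receptor for the endoplasmic reticulum, was lower in both treatments, with 3538 in M1 and 3449 in M2, against 5598 in M0. CCPG1 and STBD1 were among the 3 of 15 genes past 1.5-fold lower in M2 than in M0, 20% beside 8.73% of all genes. None was higher in M2 than in M0 by as much, beside 6.22%. STBD1, a receptor for glycogen, had means of 455 in M1 and 219 in M2, against 377 in M0, and was 2.08-fold lower in M2 than in M1.

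Tethering and fusion was the list with no gene past 1.5-fold lower in M1 than in M0 macrophages and 3 of 13 higher. Those shares were 0% and 23.1%, beside 16.6% and 13.5% of all genes. SNAP29, the SNARE partner of STX17, had a mean of 6896 in M1 and 2017 in M2, against 1974 in M0, 3.49-fold higher in M1. RILP, an effector of RAB7, had 277 in M1 and 129 in M2, against 117 in M0, 2.37-fold higher in M1. VPS18, of the HOPS tether, was 1.52-fold higher, and not past 1.5-fold under equal sums. The median log2 ratio of the 13 genes was 0.22 in M1 against M0, beside 0.01 over all genes, and 11 of them lay above 0. In M2 against M0 macrophages none of the 13 was past 1.5-fold, beside 6.22% higher and 8.73% lower over all genes.

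**Figure D5:**
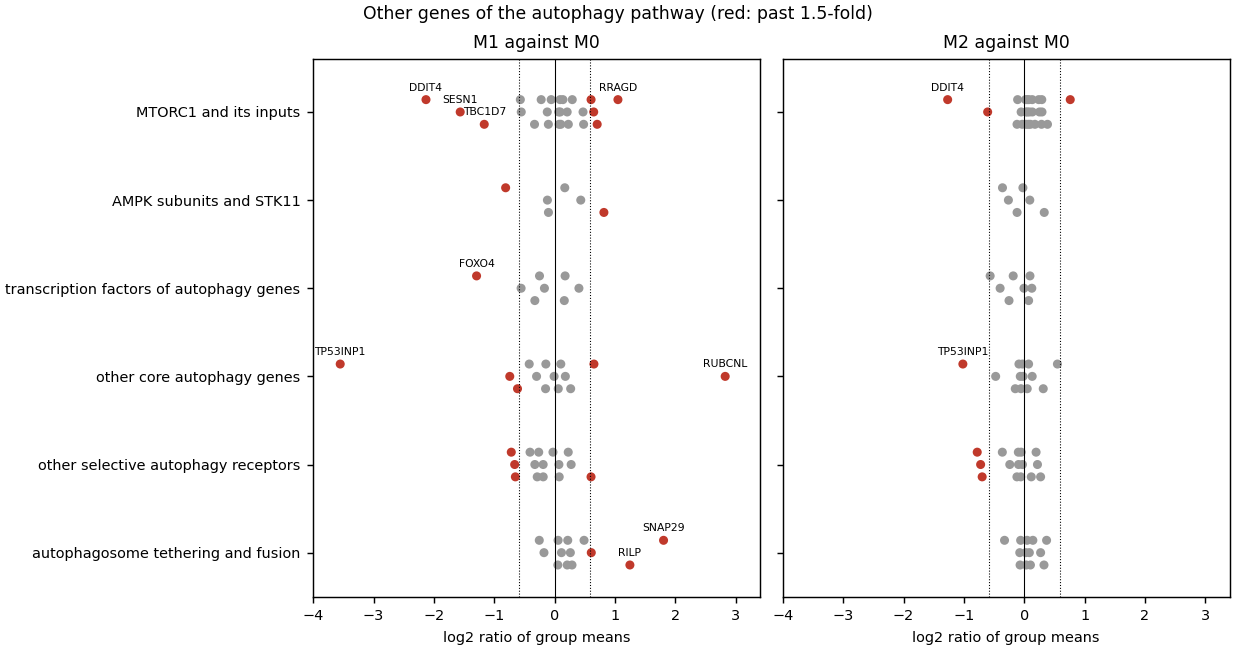
Log2 ratios of the authors' means for the genes of 6 further pathway lists with a mean of at least 50 in the higher group, in M1 against M0 (left) and M2 against M0 macrophages (right); red points are past 1.5-fold and genes past 2-fold are named. RUBCNL stands furthest to the right in M1, followed by SNAP29, RILP and RRAGD. SESN1, FOXO4 and TBC1D7 stand to the left in M1, and DDIT4 and TP53INP1 to the left in both panels.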

How the data were processed

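RNA of the 9 samples was sequenced by the authors. Reads were mapped onto CanFam3.1 using STAR 2.7.3a within Partek 7.0, HTSeq gave gene counts, and DESeq2 was used by the authors for their comparisons. How the counts were normalized is not given in the sources used here. The deposited signal values used here are least squares means per group of the normalized counts for genes with a protein coding biotype, of which 1762 carry an identifier and no name. They sum to 28039918 in M1, 27312028 in M2 and 26728643 in M0. The depth of the samples is not given by them. The authors' comparison columns (ratios, fold changes, p-values and FDRs) were not used. Whether counting used strand is not given in the sources used here, so reads of overlapping or near-identical genes are uncertain.

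Log2 ratios of the means were computed with Python 3.11.15, numpy 2.4.6 and pandas 2.3.3 with no pseudocount, and figures drawn with matplotlib 3.10.9. The counting was checked on simulated data. Without values per sample no test was possible. The thresholds were 1.5-fold and a mean of 50 in the higher group. The genes, lists and rules were chosen with earlier results of these data known. All genes of the autophagy list were described, and from the other lists those past 2-fold, at most 4 per list and comparison. Further genes named from the other lists were outside this rule and were picked after their values had been seen. Alternatives were other folds and minimum means, a pseudocount, equal sums and centring on the median. Sequences and promoter motifs were not analysed here.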

Additional observations from a re-analysis of the deposited data

How the results depend on the processing

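The count of autophagy genes past the fold threshold followed that threshold. At a threshold of 0.32 on the log2 scale it was 19 for M1 against M0, 10 for M2 against M0 and 17 for M2 against M1 macrophages, at 2-fold it was 4, 0 and 3, and at the study's 1.5 on the log2 scale it was 2, 0 and 1 in the same order. The shares of the 41 genes were 46.3%, 24.4% and 41.5% at the lowest of these thresholds, beside 53.0%, 32.4% and 45.3% of all genes, and 9.76%, 0% and 7.32% at 2-fold, beside 14.3%, 6.49% and 12.7%. At 1.5 on the log2 scale they were 4.88%, 0% and 2.44%, beside 7.08%, 2.97% and 7.01%. The 4 genes past 2-fold in M1 against M0 were ULK2, WIPI1, CALCOCO1 and ULK1. At 0.32 on the log2 scale 5 of the 19 were higher in M1, 12.2% of the 41 beside 26.1% of all genes, and 14 lower, 34.1% beside 27.0%. The count over the other pathway lists was 35, 18 and 34 at 0.32 on the log2 scale, 9, 2 and 9 at 2-fold, and 5, 0 and 3 at 1.5 on the log2 scale. Of their genes that reached the minimum mean, these were 43.2%, 22.5% and 42.0% at 0.32 on the log2 scale. They were 11.1%, 2.5% and 11.1% at 2-fold, and 6.17%, 0% and 3.70% at 1.5 on the log2 scale. The shares of all genes to set beside them are those given above. At 1.5-fold, a minimum mean of 200, no minimum, a pseudocount of 10, equal sums and centring on the median were tried. Each left the counts of higher and lower genes together within 1.5 times and each median within 0.1. By direction, genes of the other pathway lists higher in M1 than in M0 went from 11 to 6 under equal sums. Those higher in M2 than in M0 went from 1 to 2 with no minimum. Under equal sums 11 autophagy genes were lower in M1 than in M0, with ATG4C and ATG16L2 added, and 3 lower in M2 than in M0, with GABARAPL1 added. Those shares were 26.8% and 7.32%, beside 18.6% and 9.53% of all genes under the same rescaling. In M2 against M1 macrophages 8 were then higher, with ATG2A added, 19.5% beside 14.4%. No paired analysis was possible because the values are group means, and for the same reason no replicate could be left out. Means of 3 samples limit what a difference near 1.5-fold can show.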
